A study of Mus musculus with 6 samples.

Results

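The region around cavin-3 on mouse chromosome 7 was followed in adipose tissue to ask how far from the targeted allele a difference between cavin-3 KO and WT mice could be read. Its members were the probe sets of the Mouse Gene 1.0 ST array whose numbers run from 10554400 to 10557400 or from 10564950 to 10567950, with cavin-3 itself (10566454) left out. This gave 781 of the 34760 probe sets in the table. A probe set is a group of short DNA probes read as 1 value, here a log2 intensity. The 781 comprised 635 probe sets listed with a single gene symbol (582 different symbols), 32 listed with several symbols and 114 unlisted in the platform annotation used here. Every member was kept, and 319 had a mean at or above that of the median probe set of the array.

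Total RNA came from the adipose tissue of 3 WT mice and 3 cavin-3 KO mice, 1 array each. They were littermates aged 10 weeks, on standard chow, and all were fasted for 6 hours before the tissue was taken. In the KO mice both copies of the whole cavin-3 gene are exchanged for a cassette that joins lacZ to neo, in every cell, and the allele traces to targeted C57BL/6N ES cells put into C57BL/6 blastocysts. The labels do not name the fat depot or the sex of the mice. Because whole tissue was measured, fewer cells of a type and less RNA per cell cannot be told apart.

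Cavin-3 is a coat protein of caveolae, the small flask-shaped pits of the plasma membrane that are abundant in adipocytes. A targeted allele of this kind removes a gene and leaves foreign DNA between its neighbours, and the neighbours of a targeted gene are commonly examined beside it. The stretch of chromosome 7 examined here is dominated by olfactory receptor genes, which are used by sensory neurons of the nose, and it also holds the beta-globin genes, a group of Trim genes and many genes that most cells use.

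The assumption that the numbers follow the chromosome was checked against the gene order of RefSeq (GRCm38.p6). In the series 10554400 to 10557400, with 358 probe sets from Ngrn to Sbk1, the 284 single-symbol probe sets that RefSeq places on chromosome 7 followed the gene order with a Spearman's rho of 1.0. In the series 10564950 to 10567950, with 423 probe sets from Furin to Eif3c, rho over 334 such probe sets was 0.992. The former is the plus-strand series (232 of 233 probe sets with a known strand) and the latter the minus-strand series (249 of 249), so both cover the same stretch, on each strand. Of the single-symbol members, 618 were placed on chromosome 7, 14 carried a symbol that RefSeq places on another chromosome, and 3 were not in its table. Cavin-3 is numbered in the minus-strand series. In RefSeq's order, Cckbr is the next gene on the side where numbers fall. Smpd1 is the nearest measured gene on the side where numbers rise. Both are numbered in the plus-strand series. There were 436 members on the Cckbr side and 345 on the Smpd1 side. Distances are given in probe set numbers, which keep the order of genes but are not base pairs. In the minus-strand series they are counted from cavin-3. In the plus-strand series, which does not hold cavin-3, they are counted from the middle of the numbers of Cckbr and Smpd1, and this point is meant there by a distance from cavin-3.

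The 250 bases before the annotated start of 3 plus-strand neighbours are shown because these genes are described closely below: Cckbr and Cnga4 are neighbours of cavin-3 with higher values in KO mice, and Smpd1 is the nearest measured gene on the other side. The sequences are RefSeq's, GRCm38.p6, plus strand, 5′ to 3′, at chr7:105425481-105425730 for Cckbr, chr7:105404318-105404567 for Cnga4 and chr7:105554110-105554359 for Smpd1. Capitals mark matches, on either strand, to 5 motifs, and no matches overlap here. TATAAA was searched as the TATA box, the common core promoter element. CCAAT was searched under its own name. GGGCGG was searched as the GC box, a motif of many housekeeping promoters. CACGTG was searched as the E-box, and TGACGTCA was searched as the cAMP response element.
Cckbr: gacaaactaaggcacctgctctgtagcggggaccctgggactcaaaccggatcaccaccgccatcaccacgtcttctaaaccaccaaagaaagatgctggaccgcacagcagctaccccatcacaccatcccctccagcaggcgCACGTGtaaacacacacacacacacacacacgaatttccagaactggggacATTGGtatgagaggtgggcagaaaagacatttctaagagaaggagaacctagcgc
Cnga4: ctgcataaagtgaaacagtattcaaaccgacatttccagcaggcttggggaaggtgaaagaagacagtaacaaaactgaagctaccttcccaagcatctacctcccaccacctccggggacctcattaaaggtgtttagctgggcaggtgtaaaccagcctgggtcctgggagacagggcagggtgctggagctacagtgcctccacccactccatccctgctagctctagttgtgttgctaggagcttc
Smpd1: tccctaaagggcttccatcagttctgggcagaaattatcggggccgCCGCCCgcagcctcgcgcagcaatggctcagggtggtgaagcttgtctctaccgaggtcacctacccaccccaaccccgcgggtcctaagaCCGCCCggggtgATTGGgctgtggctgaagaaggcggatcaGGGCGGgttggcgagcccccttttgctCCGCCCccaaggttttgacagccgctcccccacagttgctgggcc
The window before Cckbr had 1 CCAAT match and 1 E-box match, the window before Cnga4 held none of the 5, and the window before Smpd1 held 4 GC box matches and 1 CCAAT match. Over the 32851 starts in the RefSeq set, 33.8% of windows of this length held CCAAT, 32.7% the GC box, 12.4% the TATA box, 6.02% the E-box and 1.55% the cAMP response element. GC content was 53.6% for Cckbr, 52.8% for Cnga4 and 64.8% for Smpd1. A match is a string of letters and not a site known to be used.

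Cavin-3 itself checked the genotype labels. Its log2 intensity was 10.05, 10.90 and 10.45 in the WT mice and 6.79, 6.78 and 7.12 in the KO mice, so the groups were far apart (difference -3.57, 0.0843-fold, limma adjusted p = 0.0409). Median intensity over all probe sets was 67.1 to 70.8 per array. The 8 adipocyte markers were high on all 6 arrays, with array means of 11.99 to 12.16 in WT and 12.10 to 12.19 in KO mice. WT replicate 2 and KO replicate 3 stood apart from the other arrays: Xist, the RNA of the inactive X chromosome, read 11.14 and 11.34 there and 3.70 to 6.30 elsewhere, and Uty, a Y-linked gene, read 3.36 and 3.21 there and 7.89 to 8.14 elsewhere. The methods state that male animals were analysed, so these arrays go against that description. Below, the overall counts, the higher members near cavin-3 on the Cckbr side and Dnah3 are also given without them. Counts of the zones farther out and of the gene groups rest on all 6 arrays.

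The largest differences of the region lay next to cavin-3 and in Dnah3, which varied within a genotype, and beyond 50 numbers from cavin-3 the share of members with an unadjusted p under 0.05 was no higher than that of the whole array. A single member passed an adjusted p of 0.05 (0.128% of 781, against 0.00575% of all probe sets, where cavin-3 is the only other call). At an unadjusted limma p under 0.05 there were 18 members (2.3%, against 1.95% of all probe sets), 9 higher in KO mice (background 0.892%) and 9 lower (background 1.06%). Without WT replicate 2 and KO replicate 3 this count was 15 (1.92%, against 2.87% of all probe sets). At an unadjusted p under 0.01 there were 8 members (1.02%, against 0.288%), 4 of the 38 within 50 numbers of cavin-3 and 4 of the 743 beyond (0.538%). Values of both genotypes did not overlap for 48 members (6.15%, against 5.5%), 23 higher (background 2.36%) and 25 lower in KO mice (background 3.14%). The median difference over the members was -0.01 and the median standard error 0.12. With 3 mice per genotype, a typical member was thus measured to about ± 0.12 (SE) on the log2 scale.

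The member that passed was the unlisted probe set 10566452, numbered just before cavin-3 in the minus-strand series, between Fam160a2 (10566438) and cavin-3 (10566454). Its log2 intensity was 5.73, 5.46 and 5.75 in the WT mice and 9.08, 8.94 and 9.04 in the KO mice. The 3 KO values lay close together and every one was at least 3.19 above the highest WT value. It rose by 3.37 (95% interval 3.11 to 3.64), 10.4-fold (8.64 to 12.5), with a limma adjusted p of 0.00121. This was the highest difference of all 34760 probe sets. Leaving out each mouse in turn gave 3.28 to 3.43 with adjusted p of 0.00616 to 0.0349. Without the pair of arrays high in Xist the difference was 3.27 (9.65-fold) with an adjusted p of 0.14. The annotation used here gives this probe set no gene, and no gene is assigned to it here.

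Within 50 numbers on the Cckbr side, 4 annotated genes had higher values in KO mice at an unadjusted p under 0.05, and none of them passed after adjustment over all probe sets. Cnga4 encodes a modulatory subunit of an ion channel that cyclic nucleotides open in olfactory neurons. Its log2 intensity was 4.25, 4.46 and 4.27 in the WT mice and 5.30, 5.19 and 5.39 in the KO mice. The groups were separated by 0.73. The difference was 0.97 (95% interval 0.72 to 1.21), 1.95-fold, with a limma adjusted p of 0.625.

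Cckbr, the receptor for gastrin and cholecystokinin and the nearest gene on this side, read 4.46, 4.75 and 5.0 in the WT mice and 5.70, 5.46 and 5.47 in the KO mice. All KO values were above all WT values, by 0.45 at the nearest. The difference was 0.81 (0.42 to 1.19), 1.75-fold, with a limma adjusted p of 1.0. Fam160a2, whose product belongs to a complex that links the motor dynein to its cargo, is the only one of the 8 measured genes nearest to the allele on this side with a mean at or above the median probe set. It read 8.14, 8.06 and 8.20 in the WT mice and 8.97, 8.82 and 8.56 in the KO mice. Again the groups did not overlap, with a gap of 0.36. The difference was 0.65 (0.35 to 0.96), 1.57-fold, with a limma adjusted p of 1.0.

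Farther along, the olfactory receptor gene Olfr691 read 3.69, 3.83 and 3.72 in the WT mice and 3.92, 4.32 and 4.13 in the KO mice. The gap was only 0.08. The difference was 0.37 (0.08 to 0.67), and the unadjusted p was no longer under 0.05 in 4 of the 6 fits that left out 1 mouse. Its neighbour Olfr690 had KO values of 4.90 to 4.91 just above the WT values of 4.60 to 4.84, and its interval included 0 (0.15, -0.09 to 0.38). The other 3 measured genes on this side had intervals that included 0 and overlapping values: Gm5901 at 0.06 (-0.13 to 0.26), Olfr692 at 0.01 (-0.25 to 0.26) and Olfr689 at -0.06 (-0.36 to 0.23). In RefSeq's order from cavin-3 these genes run Cckbr, Cnga4, Gm5901, Fam160a2, Olfr692, Olfr691, Olfr690 and Olfr689. Genes with higher KO values were thus interspersed with genes whose values overlapped. The annotation used here lists no probe set under the pseudogenes Gm4972 and Gm45331 of the same stretch, so neither could be read by name. The paper lists Gm4972 among the genes higher in KO mice. Whether an unlisted member reads either pseudogene was not tested. Without the arrays high in Xist, the differences were 0.99 (0.71 to 1.26) for Cnga4, 0.85 (0.23 to 1.47) for Cckbr, 0.73 (0.43 to 1.02) for Fam160a2 and 0.41 (-0.04 to 0.87) for Olfr691. The interval of the last then included 0.

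None of the 5 measured genes among the 10 nearest on the Smpd1 side had a p under 0.05 or separate groups. Smpd1, the acid sphingomyelinase of lysosomes, read 9.82, 10.17 and 10.16 in the WT mice and 10.12, 9.98 and 9.82 in the KO mice. Apbb1, an adaptor that binds the amyloid precursor protein, read 6.00, 6.15 and 6.39 in the WT mice and 6.17, 6.15 and 6.04 in the KO mice. The genotypes overlapped for both genes, with differences of -0.08 (-0.40 to 0.25) and -0.06 (-0.35 to 0.23). Hpx, the heme-binding plasma protein hemopexin, read 5.90, 5.62 and 5.56 in the WT mice and 6.73, 5.57 and 6.13 in the KO mice. KO replicate 1 was its highest and KO replicate 2 lay among the WT values, and the difference was 0.45 (-0.24 to 1.15). Trim3, a ubiquitin ligase, differed by -0.09 (-0.30 to 0.13) and Arfip2, which binds small GTPases of the Arf and Rac families, by -0.05 (-0.25 to 0.15). The intervals of Smpd1, Apbb1, Trim3 and Arfip2 all end below the 0.65 measured for Fam160a2, while that of Hpx does not. No test compared both sides of the allele.

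**Figure D1:**
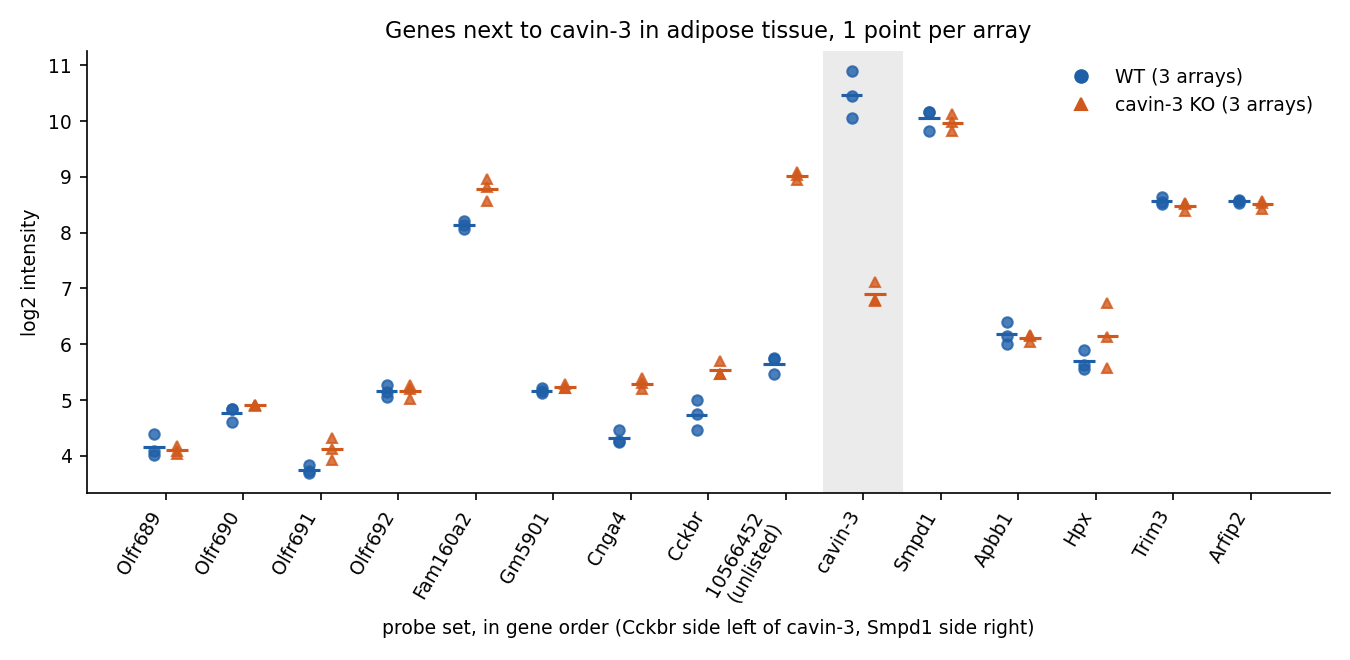
Log2 intensity of cavin-3, the unlisted probe set 10566452 and the 13 measured genes among the 10 nearest on each side. Named genes stand in gene order. The unlisted probe set is drawn beside cavin-3, although its number places it only between Fam160a2 and cavin-3. Its order relative to Cckbr, Cnga4 and Gm5901 is not known. Circles are the 3 WT arrays, triangles the 3 KO arrays and bars the group means. Cckbr, Cnga4 and Fam160a2 have all KO points above all WT points, the unlisted probe set is 3.37 higher in KO, and the genes to the right of cavin-3 overlap.

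Of the 9 members higher in KO mice at an unadjusted p under 0.05, 5 lay within 18 numbers of cavin-3, all on the Cckbr side. On the Cckbr side, 7 of the 32 members within 50 numbers had an unadjusted p under 0.05 (21.9%, against 1.95% of all probe sets), 5 higher and 2 lower in KO mice. The 5 higher were 10566452, Cnga4, Cckbr, Fam160a2 and Olfr691, and the 2 lower were the olfactory receptor genes Olfr675 (-0.28) and Olfr679 (-0.23), which lie farther out. Values did not overlap for 9 of the 32 (28.1%, against 5.5%), 7 of them higher. Without the arrays high in Xist 5 of the 32 had a p under 0.05, 4 higher and 1 lower, against 2.87% of all probe sets. When 1 mouse at a time was left out, 4 to 6 were counted, of which 4 or 5 were higher, against 1.72% to 2.67% of all probe sets. The other 3 unlisted members of this stretch had intervals that included 0, with 10566415 at -0.10 (-0.33 to 0.13), 10566419 at 0.01 (-0.25 to 0.26) and 10566422 at 0.10 (-0.11 to 0.31).

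At 51 to 150 numbers on the Cckbr side, 0 of 54 members had a limma p under 0.05. Values did not overlap for 3 of them (5.56%, against 5.5% of all probe sets). Shares past that distance were 3 of 124 (2.42%) above 150 and up to 500, 3 of 112 (2.68%) above 500 and up to 1000, and 1 of 114 (0.877%) beyond, which lie on either side of the background of 1.95%. On the Smpd1 side the limma counts were 0 of 6 up to 50, 0 of 38 at 51 to 150, 1 of 103 (0.971%) above 150 and up to 500, 2 of 91 (2.2%) above 500 and up to 1000, and 1 of 107 (0.935%) beyond. Over both sides, 11 of the 743 members beyond 50 numbers had a p under 0.05 (1.48%), 4 higher and 7 lower in KO mice, and 39 did not overlap (5.25%). Both shares lie below those of all probe sets. The median difference was within 0.03 of 0 in every zone except up to 50 numbers on the Smpd1 side, where the 6 members had a median of -0.06. That zone holds 6 members, so its count says little.

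**Figure D2:**
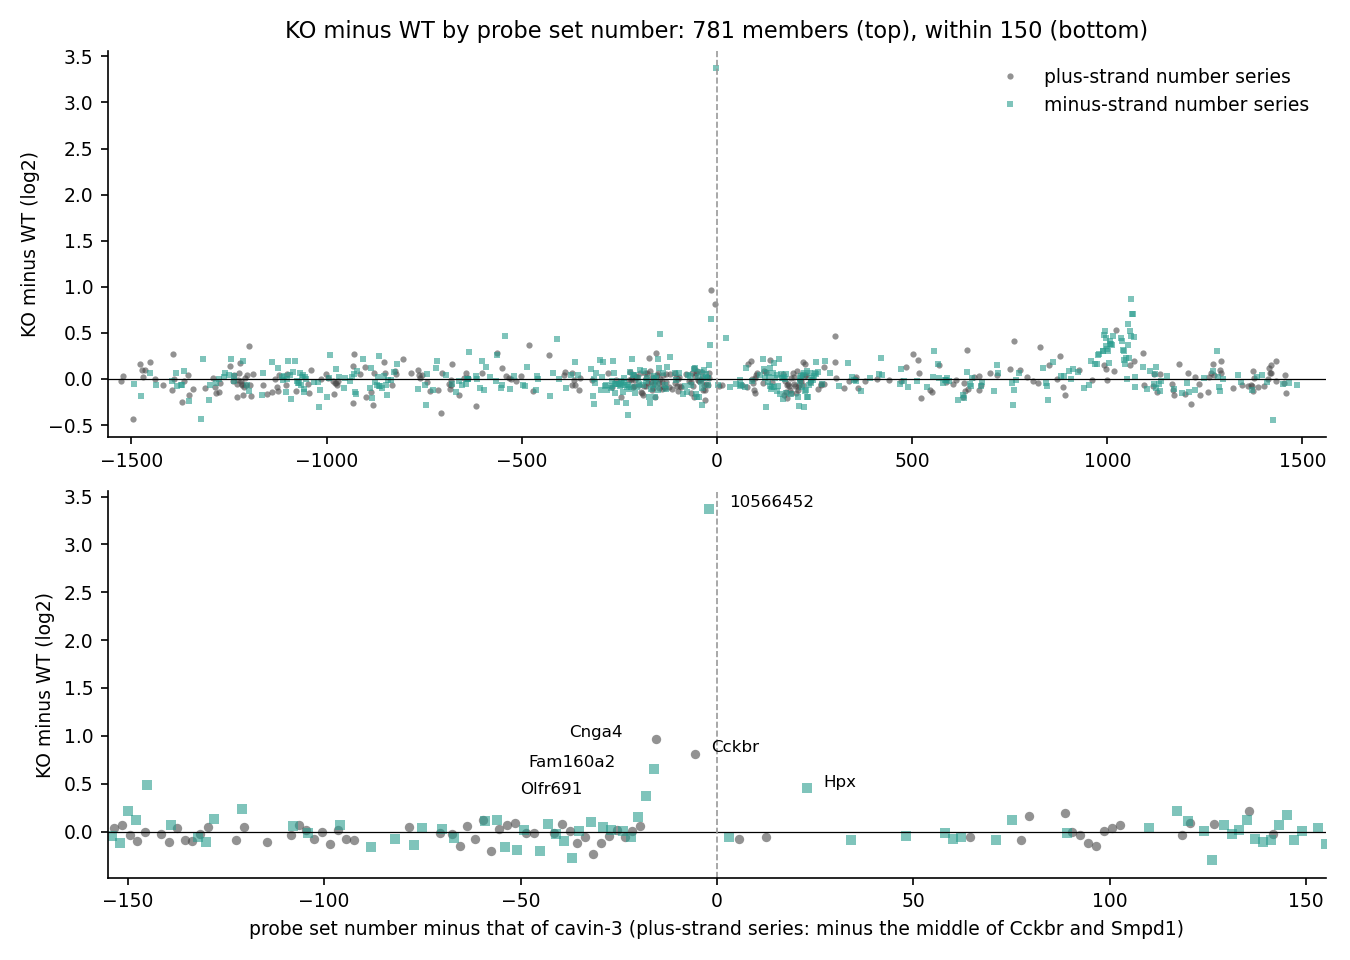
KO minus WT difference in log2 intensity of each member (1 point per probe set) against its number relative to cavin-3, for all 781 members in the upper panel and those within 150 numbers in the lower panel. For the plus-strand series the middle of Cckbr and Smpd1 stands in for cavin-3. Circles are the plus-strand and squares the minus-strand series, and lower numbers lie on the Cckbr side. The highest points sit just left of the dashed line that marks cavin-3, and the raised cluster near 1000 in the upper panel is made mostly of Dnah3 probe sets.

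**Figure D3:**
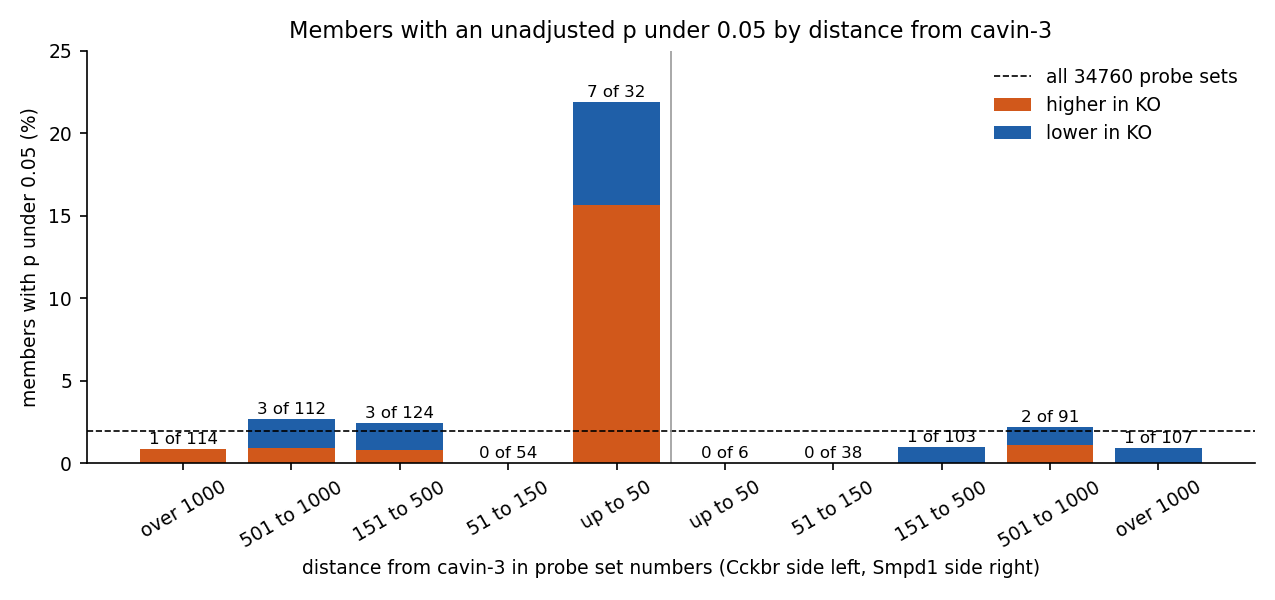
Share of members with an unadjusted limma p under 0.05 in each distance zone, stacked by direction, with the counts above the bars and the share over all 34760 probe sets (1.95%) as a dashed line. The zone up to 50 numbers on the Cckbr side reaches 21.9%, and every other zone lies at 2.68% or below.

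Olfactory receptor genes were the largest family, with 197 probe sets for 196 genes, and as a family they were dim and nearly flat. Their median mean intensity was 3.61, 2 of the 197 reached the median probe set of the array, and the median over the family was 3.49, 3.73 and 3.63 in the WT mice and 3.51, 3.55 and 3.61 in the KO mice. The differences ran from -0.39 to 0.37 with a median of -0.03 (all probe sets: -0.004), 75 higher and 122 lower in KO mice. An unadjusted p under 0.05 was found for 6 (3.05%, against 1.95% of all probe sets), of which Olfr691 was higher and 5 were lower, and 13 did not overlap (6.6%, against 5.5%). Olfr620 read 3.59, 3.72 and 3.59 in the WT mice and 3.14, 3.28 and 3.30 in the KO mice, with the groups apart. Its difference was -0.39 (-0.61 to -0.17). Olfr470 read 3.13, 3.09 and 3.17 in the WT mice and 2.80, 2.85 and 2.87 in the KO mice, also apart, and differed by -0.29 (-0.48 to -0.10). The remaining one was Olfr544 (-0.27), beside Olfr675 and Olfr679 given above. Olfactory receptor genes resemble each other in sequence, so their probes can share signal, and none passed after adjustment.

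**Figure D4:**
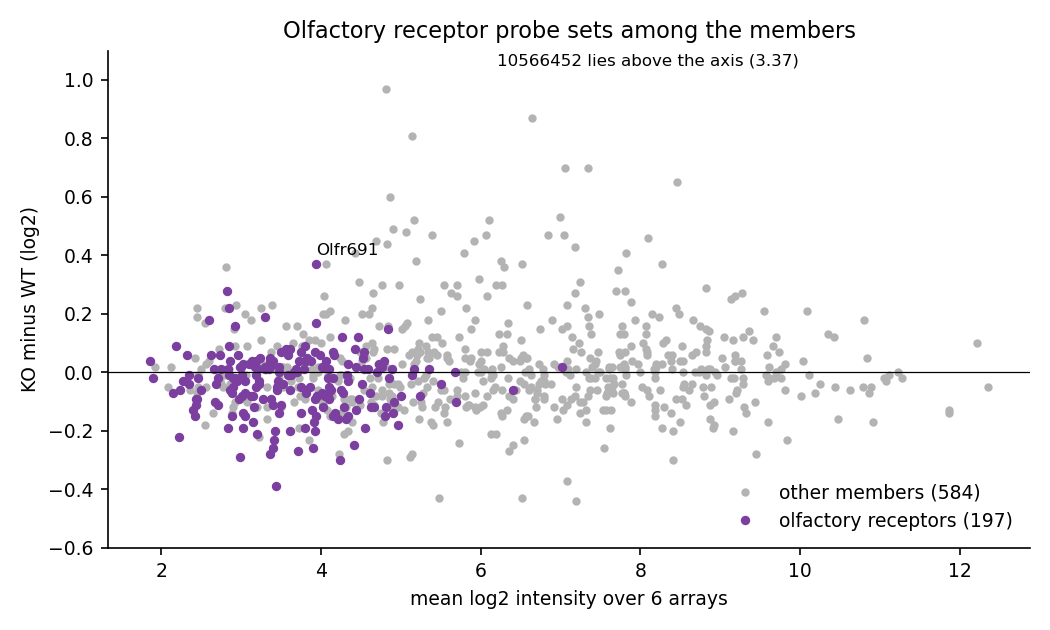
KO minus WT difference in log2 intensity against the mean log2 intensity over 6 arrays for the 197 olfactory receptor probe sets (purple) and the 584 other members (grey). The receptors crowd at low intensity between -0.39 and 0.37, with Olfr691 at the top, and the unlisted probe set 10566452, at 3.37, lies above the plotted range.

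No member of the other gene groups of the region had an unadjusted limma p under 0.05, against 1.95% of all probe sets. These groups hold 3 to 23 probe sets each, so a count of 0 says little. The 11 Trim probe sets, for ubiquitin ligases of which many act in innate immunity, had 7 higher and 4 lower with a median of 0.06. They ran from -0.16 to 0.18, with Trim68 at 0.18, Trim66 at 0.07 and Trim6 at -0.09. Values did not overlap for 1 of the 11 (9.09%, against 5.5% of all probe sets), which was Trim6, lower in KO mice. The embryonic and fetal beta-globin genes Hbb-bh1 (0.09), Hbb-bh2 (-0.06) and Hbb-y (-0.02) were dim in both genotypes. One of the 2 probe sets shared by several beta-globin symbols read 8.0, 6.75 and 8.13 in the WT mice and 7.99, 7.68 and 7.04 in the KO mice, and the other read 12.26, 11.70 and 12.52 in the WT mice and 12.30, 12.39 and 12.10 in the KO mice. The genotypes overlap in both, with differences of -0.05 and 0.10. Beside them, the 3 measured red blood cell markers had array means of 5.75 to 6.04 in WT and 6.01 to 6.11 in KO mice, with Alas2, the heme synthesis enzyme of red cell precursors, at 6.96 to 7.94 and 7.55 to 7.84.

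Genes of general cell upkeep were bright, with 23 of 23 probe sets at or above the median probe set. Their differences ran from -0.19 to 0.12 with a median of -0.05, 7 higher and 16 lower, for example Rrm1, the large subunit of ribonucleotide reductase, at -0.19 (-0.49 to 0.11), the ribosomal protein gene Rpl27a at -0.11 (-0.33 to 0.12), the lysosomal peptidase Tpp1 at 0.12 (-0.16 to 0.40) and the small GTPase Rhog at 0.11 (-0.16 to 0.38). The 14 probe sets of lipid and energy metabolism had 8 higher and 6 lower with a median of 0.004. Among them Pde2a, which breaks down cyclic nucleotides, was at 0.26 (-0.09 to 0.61), Ucp3, a mitochondrial uncoupling protein, at 0.28 (-0.36 to 0.93), Ndufc2, a subunit of respiratory complex I, at -0.14 (-0.42 to 0.14) and Gdpd5, a phosphodiesterase of glycerol phospholipids, at -0.13 (-0.40 to 0.15). Dgat2, the last enzyme of triglyceride synthesis, was at -0.05 and Thrsp, a regulator of lipogenesis, at -0.17.

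In the clock and growth control group 5 of 8 probe sets were higher and 3 lower, with a median of 0.03. Tead1, a transcription factor of the Hippo pathway, had 2 probe sets at 0.27 and 0.21, Arntl, a core activator of the circadian clock, was at -0.21 (-0.62 to 0.21), and Arrb1, a beta-arrestin, at 0.06. The 5 deubiquitinase and ubiquilin probe sets had a median of 0.07, led by Ubqlnl at 0.49 (-0.17 to 1.14), with Usp17lb at 0.11, Usp17lc at 0.07 and Usp17ld at -0.08. All 5 were dim. No difference in these groups had an interval that excluded 0.

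Beyond 50 numbers, 4 members had an unadjusted p under 0.01 (0.538%, background 0.288%), on both sides and in both directions, none with an adjusted p under 0.05. Besides Olfr620 and Olfr470 these were unlisted probe sets. Probe set 10555233 read 7.32, 7.33 and 7.16 in the WT mice and 6.91, 6.84 and 6.94 in the KO mice, with the groups apart. It was the only bright one of the 4 and differed by -0.37 (-0.59 to -0.16). Probe set 10554743 read 2.7, 2.69 and 2.52 in the WT mice and 3.03, 3.04 and 2.91 in the KO mice. It lies more than 1000 numbers from cavin-3 and differed by 0.36 (0.13 to 0.58). With p between 0.01 and 0.05 there were also the higher Lrrc51 (0.43), Gm10589 (0.31) and Plekhb1 (0.47), and the lower unlisted 10567213 (-0.28), the glycosyltransferase B3gnt6 (-0.28) and the mitotic kinase Plk1 (-0.27). Lrrc51 read 7.18, 6.69 and 7.03 in the WT mice and 7.57, 7.34 and 7.29 in the KO mice, which do not overlap.

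Beyond 50 numbers, the highest differences came from Dnah3 and the lowest from Atp2a1 and BC048679, all of which varied within a genotype. An SD within genotypes above 0.5 was found for 46 members, against a median of 0.15 over the region, and 29 of the 46 were probe sets of Dnah3, which encodes a heavy chain of the dynein motor of cilia. Dnah3 has 33 members, and their array medians were 5.57, 4.89 and 5.94 in the WT mice and 6.71, 5.56 and 5.09 in the KO mice. KO replicate 1 was the highest array for 33 of 33, whereas WT replicate 2 was the lowest for 25 and KO replicate 3 for 8. All 33 were higher in KO mice (median 0.37, range 0.16 to 0.87, the last being probe set 10567514), and 0 of 33 had a limma p under 0.05 or groups apart. These probe sets share 1 gene and are not separate observations. Without KO replicate 1 the median was -0.11, with 12 higher and 21 lower. Without WT replicate 2 the median was 0.09, with 26 higher and 7 lower. When any other single mouse was left out, all 33 stayed higher, with medians from 0.42 to 0.81. All 33 also stayed higher without the pair of arrays high in Xist, with a median of 0.52.

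Atp2a1, the calcium pump of fast skeletal muscle, read 6.61, 10.03 and 5.60 in the WT mice and 5.48, 5.79 and 9.64 in the KO mice. WT replicate 2 and KO replicate 3, the arrays high in Xist, were its highest. The other 5 skeletal muscle markers had array means of 7.82, 9.38 and 6.91 in WT and 7.22, 7.71 and 9.62 in KO mice, and each of the 5 was highest on one of these same arrays. BC048679 read 9.93, 4.95 and 5.30 in the WT mice and 5.06, 8.94 and 4.90 in the KO mice, so that WT replicate 1 and KO replicate 2 stood out. On the same arrays Adam7, a gene of the epididymis, read 10.33 and 9.19, against 3.67 to 4.51 on the others, while the other 4 measured epididymis markers stayed between 3.63 and 5.17 on all arrays. The part of muscle or epididymis RNA in these values was not tested.

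Further members also varied within a genotype, and several were highest or lowest on the arrays high in Xist. Acsm3, a medium-chain acyl-CoA synthetase, read 7.27, 8.13 and 7.22 in the WT mice and 7.16, 6.84 and 9.67 in the KO mice, highest in KO replicate 3 and then in WT replicate 2. Stard10, a lipid transfer protein, read 9.14, 7.39 and 7.72 in the WT mice and 9.0, 8.99 and 7.37 in the KO mice, low in both arrays high in Xist and in WT replicate 3. Mogat2, an enzyme that acylates monoacylglycerol, read 5.51, 7.74 and 5.71 in the WT mice and 6.03, 6.24 and 6.25 in the KO mice, so WT replicate 2 alone was high. Tmc5 read 7.99, 5.67 and 6.56 in the WT mice and 7.03, 7.09 and 5.92 in the KO mice, lowest in both arrays high in Xist. The part of what sets these arrays apart in these values was not tested. The differences were 0.35 for Acsm3, 0.37 for Stard10, -0.14 for Mogat2 and -0.06 for Tmc5, each smaller than the member's SD within genotypes. The lowest differences of the region were also of this kind or small: Atp2a1 at -0.44, BC048679 at -0.43, Prc1, which organises the spindle midzone in cell division, at -0.43 (-0.92 to 0.07), and then Olfr620. The 7 members plotted by replicate were chosen after their values were seen.

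**Figure D5:**
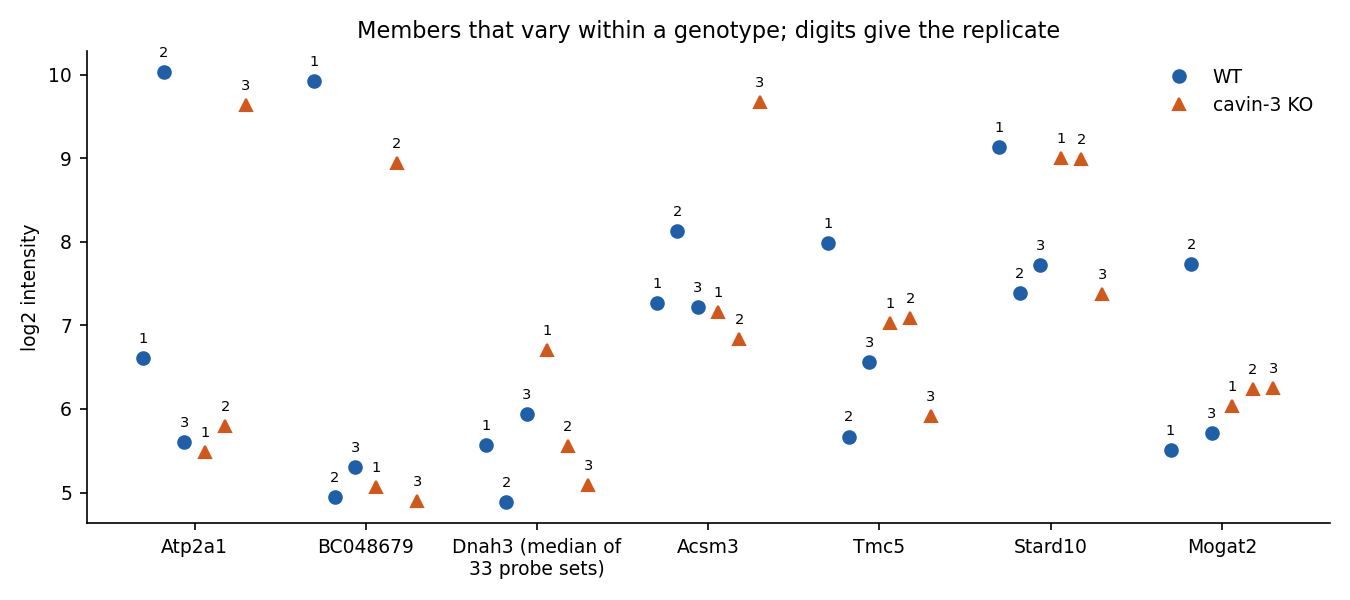
Log2 intensity on each array for members that varied within a genotype, with circles for WT, triangles for cavin-3 KO and digits for the replicate; for Dnah3 the point is the median of 33 probe sets. Atp2a1 is highest in WT replicate 2 and KO replicate 3, BC048679 in WT replicate 1 and KO replicate 2, and Dnah3 in KO replicate 1, so no gene separates the genotypes.

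At the ends of the region the differences were small. Just inside lay Ngrn (-0.02), Sbk1 (-0.15), Furin (-0.05) and Eif3c (-0.07), and just outside Ttll13 (0.08), Rabep2 (-0.05), Fes (-0.01) and the unlisted 10567962 (0.04). Narrowing the region to 750 numbers on each side of cavin-3 left 458 members. In the plus-strand series the 750 were counted from the middle of its number range. Of the 458, 15 had a limma p under 0.05 (3.28%, against 1.95% of all probe sets). The fit was not repeated for the narrower region, so the call for 10566452 could not change there.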

How the data were processed

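Adipose tissue RNA of 3 WT and 3 cavin-3 KO mice was measured on Mouse Gene 1.0 ST arrays, 1 per mouse. The authors deposited normalised intensity values on a linear scale, made with RMA per the labels; RMA subtracts background, equalises the arrays and summarises probes, which narrows differences between arrays and leaves no detection calls. No sample column was left unused. Log2 was taken, and KO was compared with WT in limma 3.58.1 (R 4.3.3; lmFit, eBayes) over all 34760 probe sets, and p-values were adjusted over all of them by Benjamini-Hochberg. The fit was tested on simulated data. Intervals are limma's 95% confidence intervals of the mean KO minus WT difference. They rest on the spread between mice within a genotype, moderated over all probe sets, and do not give the range of single mice. The number of arrays limits the precision. Gene names came from the platform annotation, and probe sets with several symbols were not named.

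Members, gene lists and tests were chosen with earlier results of these data known. Named were members with an adjusted p under 0.05, or an unadjusted p under 0.01, the annotated genes among the 10 nearest on each side, up to 4 of each group with the smallest p, the 4 largest differences in each direction and unlisted members within 50 numbers; others were chosen after their values were seen. Zones were set at 50, 150, 500 and 1000 numbers. The alternatives were a filter on dim probe sets, quantile normalization, arrays centred on their medians, array weights, a trended robust variance, a replicate block, probe sets with 1 symbol, the methods' t-test (on log2 or on linear values), leaving out each mouse, leaving out the pair of arrays high in Xist, and a narrower region. The group of interferon-inducible very large GTPases was left out, because it had no member with a single symbol. Probe sets listed with Gvin1 among several symbols stayed in the region but were not grouped. Macrophage markers had array means of 8.63 to 9.10 in WT and 8.62 to 8.89 in KO mice, and B cell markers 4.64 to 5.14 and 4.71 to 4.95.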

Additional observations from a re-analysis of the deposited data

How the results depend on the processing

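The adjusted call of 10566452 held with quantile normalization, median centring, the dim filter, the trended robust variance, array weights and each mouse left out. No member passed by the methods' t-test (adjusted p = 0.168 on log2 and 0.221 on linear values), with the replicate block (0.0729), or without the pair of arrays high in Xist (0.14), and the count was 0 where only probe sets with 1 symbol were tested, since 10566452 then drops out. At an unadjusted p under 0.05 these fits gave 20 (2.18% of all probe sets passed in the same fit), 20 (2.17%), 17 (2.01%), 15 (2.87%) and 14 members (1.12%), and the difference of 10566452 was 3.27 to 3.43 throughout. The deviations of mice with the same number correlated at -0.15, -0.37 and -0.09, and no mouse correlated best with its own number (highest were WT replicate 1 with KO replicate 2 at 0.52, WT replicate 2 with KO replicate 3 at 0.48 and WT replicate 3 with KO replicate 1 at 0.37), so the block is given only here. Beside the call it left 4 members with a p under 0.01 (0.279% of all probe sets). The 18 members with a p under 0.05 became 7 (4 higher, 3 lower) of 319 with the dim filter, which tests fewer probe sets (1.32% of those tested). They became 28 (16 lower) with array weights (3.16% of all probe sets). With single mice left out they became 12 to 24 (8 to 13 higher, 4 to 16 lower), against 1.72% to 2.67% of all probe sets. They were fewest, with 4 lower, without KO replicate 1, and most, with 16 lower, without WT replicate 1. The 8 members with a p under 0.01 became 3 with the dim filter (0.15% of the probe sets tested) and 5 with 1-symbol probe sets (0.0786% of those tested). With single mice left out they became 4 to 7, against 0.314% to 0.46% of all probe sets. Without the arrays high in Xist they became 4 (0.512%), close to the share of all probe sets (0.455%). Members without overlap numbered 19 with the dim filter (4.84% of the probe sets tested) and 86 to 142 with single mice left out (11.7% to 15.9% of all probe sets). They numbered 233 without the arrays high in Xist, where 29.4% of all probe sets do not overlap. With mice left out, fewer values must be separated. The median of the nearest genes was 0.06 and became -0.06 with the dim filter, which leaves 5 of the 13.

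Cnga4, Cckbr, Fam160a2 and Olfr691 kept their direction wherever they were tested, at 0.92 to 1.03, 0.66 to 0.94, 0.56 to 0.77 and 0.27 to 0.47 with single mice left out. Some members near 0, and BC048679 and Atp2a1, which varied within a genotype, turned their sign. With array weights this held for Usp17lc (-0.05), Olfr692 (-0.06) and BC048679 (0.49), and without the arrays high in Xist for Usp17lc (-0.06), Olfr692 (-0.05), Smpd1 (0.06), Usp17lb (-0.0008) and 10566419 (-0.06). With single mice left out the ranges crossed 0 for Arrb1 (-0.003 to 0.18), Usp17lc (-0.05 to 0.18), Olfr689 (-0.14 to 0.05), Olfr692 (-0.05 to 0.08), Smpd1 (-0.19 to 0.002), BC048679 (-1.75 to 1.18), Usp17ld (-0.19 to 0.08), Hbb-y (-0.09 to 0.04), Usp17lb (-0.02 to 0.17), 10566419 (-0.04 to 0.09), Apbb1 (-0.15 to 0.04) and Atp2a1 (-1.78 to 0.87). The causes were not tested. Of 771 values of single members under the alternatives, 731 kept their direction and their side of an adjusted p of 0.05. In the main fit only 10566452 was under that threshold. Cnga4 came next, at a limma adjusted p of 0.625, so the other members had little room to change side. Dim members, among them Cnga4, Cckbr and the olfactory receptors, lie near the lower end of the array's range, where differences of RNA are compressed.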
